A study of Saccharomyces cerevisiae with 6 samples.

Results

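Decapping and 5′ to 3′ decay of messenger RNA is described here through 10 budding yeast genes: DCP1, DCP2, EDC1, EDC2, EDC3, PAT1, DHH1, SCD6, LSM1 and XRN1. They were chosen by name, not by a measured value, but with earlier results of these data known. All 10 were found among the 5560 genes counted. In yeast most mRNAs lose their poly(A) tail first, then their 5′ cap, and the uncapped RNA is digested from its 5′ end. Dcp2 is the enzyme that cuts the cap and Dcp1 is its partner subunit. Edc1, Edc2, Edc3, Pat1, Dhh1, Scd6 and the Lsm1 complex help or direct decapping, and Xrn1 is the exonuclease that acts afterwards. Nonsense-mediated decay, the quality-control route that needs Upf3, feeds its substrates into the same decapping step.

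The study used SLAM-seq, in which RNA made in the presence of 4-thiouracil (4TU) is read out after alkylation as T-to-C changes, and the loss of those changes during a chase without 4TU follows decay. The cultures were 3 of the laboratory strain BY4741, called wild type in the labels, and 3 of the UPF3 knockout in the BY4741 background. The labels call each set biological triplicates, and name no clone. Every culture gave 7 libraries: 1 with DMSO and no 4TU, and 6 taken after labelling, at chase times of 0 and near 1, 4, 8, 18 and 58. The labels and files state no time unit, and minutes are assumed throughout.

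The 42 libraries held 11045419 to 23761767 reads from the 3′ ends of transcripts. Levels are given as normalised CPM, the reads of a gene over a library size scaled by edgeR's TMM factors. UPF3 stood at 24.1, 27.5 and 30.7 CPM in the wild-type cultures and at 4.32, 5.404 and 6.18 CPM in the deletion cultures, lower in each culture labelled as a deletion but not at 0. The 5 marker genes of a cells, the mating type of BY4741, summed to 3895–4970 CPM in wild type and 2453–3753 CPM in the deletion. The 4 markers of α cells summed to 20.9–24.7 and 50.7–66.1 CPM, with none at 0. Replicate 1 of both genotypes stood apart from replicates 2 and 3: 11.4% of 5432 genes were at least 2-fold lower in it in both genotypes, against 0.626% that were higher. All 7 barcodes of wild type 1 recur in deletion 3, and those of deletion 1 in deletion 2; their part in any result was not tested.

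The genes lie on 8 chromosomes in build R64, and each is annotated as protein coding. DCP1 (YOL149W) spans XV:44938-45633 and DCP2 (YNL118C) spans XIV:402652-405564. Among the factors that aid decapping, EDC1 (YGL222C) spans VII:80659-81186, EDC2 (YER035W) V:222639-223076, EDC3 (YEL015W) V:126629-128284 and PAT1 (YCR077C) III:250238-252628. DHH1 (YDL160C) spans IV:170410-171930, SCD6 (YPR129W) XVI:792687-793736, LSM1 (YJL124C) X:187126-187644 and XRN1 (YGL173C) VII:175527-180113. Reads were counted in a 3′ window per gene of 475 (DCP1) to 910 (DHH1) bases, and the windows' own positions are not in the tables used here.

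Levels over the 6 labelled libraries of a culture, summed, differed widely among the 10 genes. LSM1, a subunit of the ring that binds the 3′ ends of deadenylated mRNA, was the highest of them per length in wild type, at 259 ± 52.3 CPM per kb of window (SD, n = 3). SCD6, an RGG-motif translation repressor, followed at 219 ± 115 and XRN1 at 210 ± 108 CPM per kb, and these top 3 genes overlapped between cultures. DCP2 stood at 128 ± 17.3, PAT1 at 111 ± 19.5 and EDC3 at 106 ± 21.2 CPM per kb. DCP2 and PAT1 overlapped between cultures, as did PAT1 and EDC3, and EDC2 at 73.4 ± 10.7 just reached into the range of EDC3. Below them DHH1 at 40.1 ± 1.71, EDC1 at 34.0 ± 3.82 and DCP1 at 14.5 ± 2.24 CPM per kb each lay apart from its neighbours. In these reads per kb of window DCP1, the gene of the partner subunit, was far below DCP2, the gene of the catalytic one. The reads come from 3′ ends and are divided here by the length of the counting window, so the order depends on that scaling: in CPM, XRN1 at 139.9 stood above SCD6 at 116.3. DCP1 stood above 10.4% of all genes in CPM per kb, with 9 to 251 reads in a library.

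**Figure D1:**
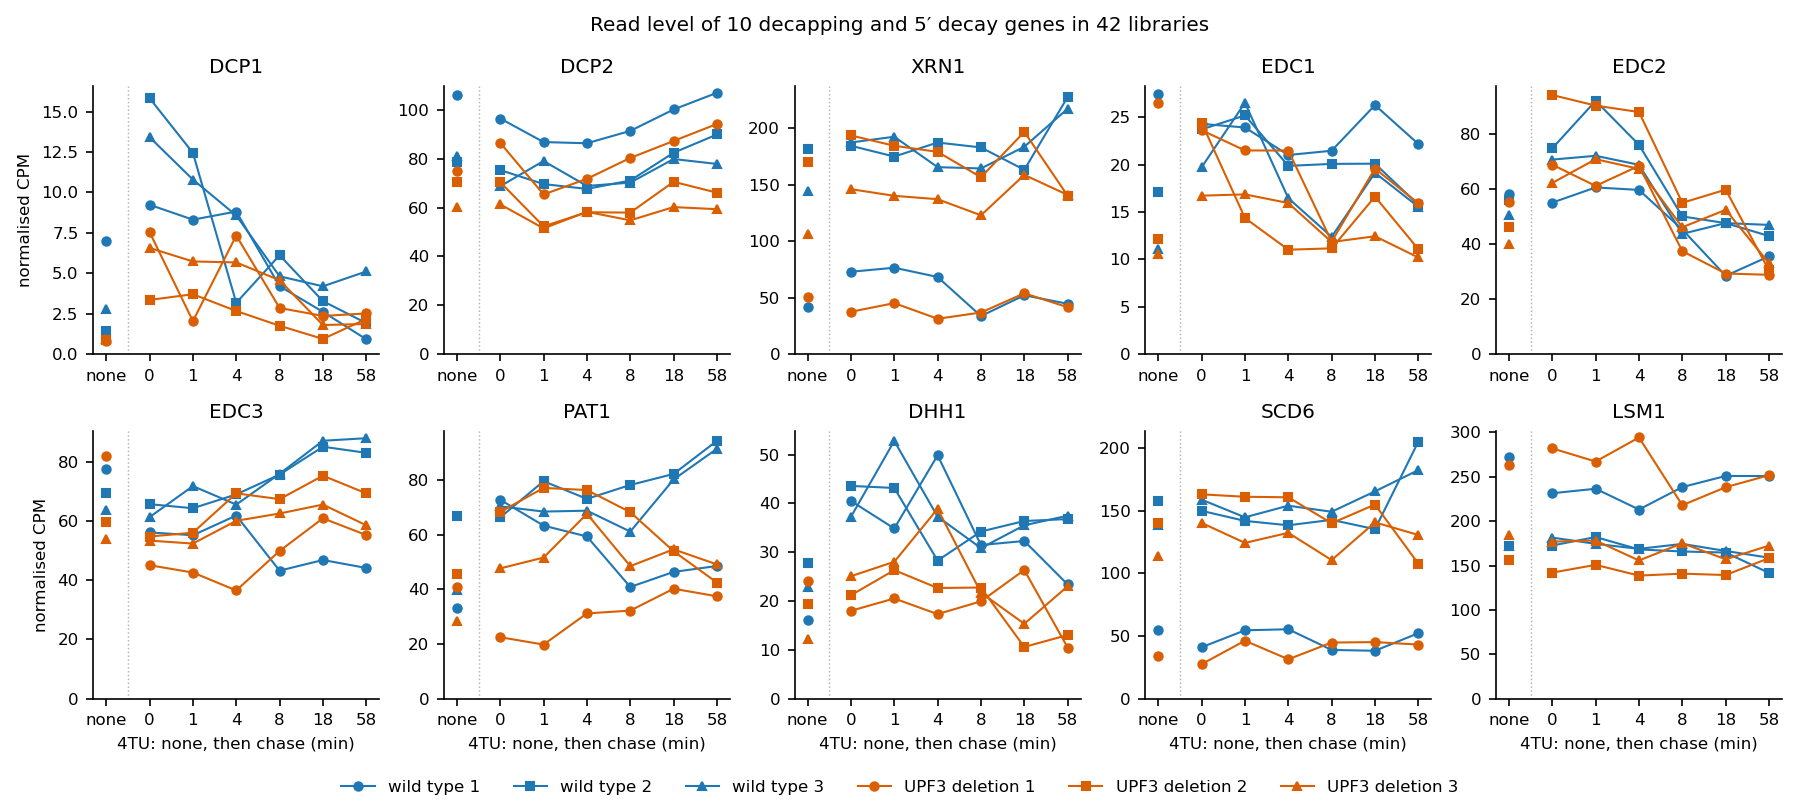
Normalised CPM (vertical axes, from 0) of the 10 genes in all 42 libraries; the left position of each panel is the library without 4TU, and lines join the 6 labelled libraries of a culture by chase time (minutes assumed). XRN1 and SCD6 of both replicates 1 (circles) run far below the other 4 cultures, DCP1 peaks in the libraries taken at chase time 0, and EDC2 falls during the chase in all 6 cultures.

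XRN1 and SCD6 split by replicate, not by genotype. XRN1 had 56.9, 181 and 181 CPM in the wild-type cultures and 40.1, 181 and 151 CPM in the deletion cultures. SCD6 had 45.6, 147 and 156 CPM in wild type and 38.9, 153 and 139 CPM in the deletion. For both genes replicate 1 was the low culture in each genotype and the other 4 cultures lay together. The ratio of replicate 1 to the mean of the other 2 was 0.314 and 0.241 for XRN1 and 0.301 and 0.266 for SCD6, in wild type and deletion. LSM1 went the other way, with ratios of 1.39 and 1.49, from 231, 163 and 169 CPM in wild type and 247, 150 and 181 CPM in the deletion. DCP2 was also highest in replicate 1, at 92.3 CPM against 74.2 and 72.9 in wild type and at 78.3 against 64.7 and 61.6 in the deletion.

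In reads of labelled libraries, DCP1 and DHH1 were lower in the deletion than in wild type in every culture, and neither passed the test without pairing of the replicates. DCP1 had 5.72, 7.21 and 7.78 CPM in wild type and 3.70, 2.49 and 4.76 CPM in the deletion. DHH1, a DEAD-box helicase that represses translation and promotes decapping, had 34.9, 36.5 and 38.0 CPM against 18.1, 20.5 and 27.3 CPM. The highest deletion culture stayed below the lowest wild-type culture for both genes, as the groups did for 2 of the 10 genes and for 22.8% of all genes tested. The log2 change was −0.92 for DCP1 (SE 0.29, adjusted p = 0.167) and −0.73 for DHH1 (SE 0.20, adjusted p = 0.110) by edgeR's quasi-likelihood test with Benjamini-Hochberg adjustment, n = 3 cultures per genotype. None of the 10 genes was called at an adjusted p of 0.05, against 5.76% of all genes, and these 2 had an unadjusted p under 0.05. In bulk RNA, fewer expressing cells and less RNA per cell cannot be told apart.

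With the replicate number as a block, 3 of the 10 genes were called lower, as were 7.54% of all genes. Same-numbered cultures deviated from their group means together in reads. Wild type 2 with deletion 3 and wild type 3 with deletion 2 did so too. Under the block, DCP1 fell by 0.96 on the log2 scale (adjusted p = 0.0142, edgeR), DHH1 by 0.75 (adjusted p = 0.00309) and PAT1 by 0.46 (adjusted p = 0.0466). PAT1, a scaffold that joins the decapping enzyme to the Lsm1 complex, had 54.2, 76.9 and 71.7 CPM in wild type and 29.7, 67.4 and 57.1 CPM in the deletion, lower in each numbered pair, with overlapping groups. DESeq2 called DCP1 (log2 −0.99, adjusted p = 0.0188) and DHH1 (−0.81, adjusted p = 0.00137) lower without the block, with 1.35% of all genes. Leaving out replicate 1 of both genotypes, edgeR called the same 2 genes, DCP1 at −1.04 (adjusted p = 0.0434) and DHH1 at −0.62 (adjusted p = 0.0206), where 4.61% of all genes were called lower.

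The remaining 7 genes were not called under any of these fits. DCP2 changed by −0.23 (SE 0.18) and LSM1 by 0.04 (SE 0.25) on the log2 scale. EDC1, a small protein that stimulates Dcp2, had 22.6, 20.5 and 18.1 CPM in wild type and 18.1, 15.2 and 15.1 CPM in the deletion, a log2 change of −0.34 (SE 0.17, adjusted p = 0.463 in edgeR, and 0.0548 with the block). Its paralog EDC2 changed by 0.08 (SE 0.23), and EDC3, a scaffold of decapping factors, by −0.14 (SE 0.23). XRN1 at −0.17 (SE 0.65) and SCD6 at −0.07 (SE 0.64) had the widest errors. Without replicate 1 of both genotypes those errors fell to 0.109 and 0.0874, around log2 changes of −0.11 and −0.03.

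**Figure D2:**
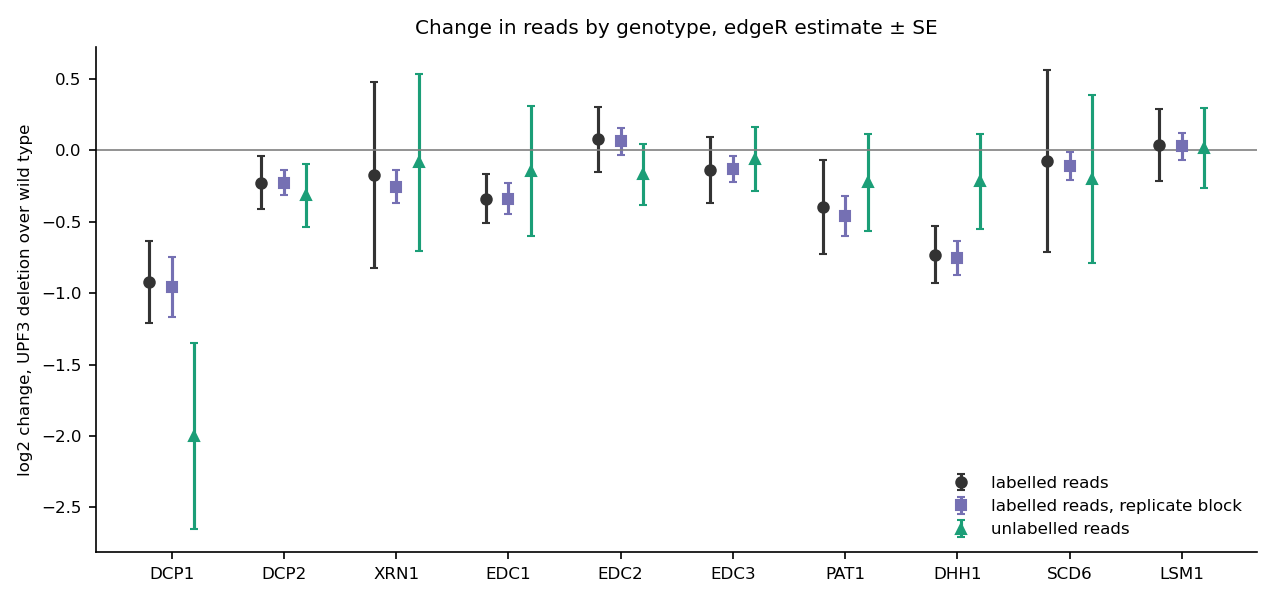
Log2 change of reads, UPF3 deletion over wild type (vertical axis), for the 10 genes, with bars of ± 1 SE from edgeR; circles are summed labelled libraries, squares the same with the replicate number as a block, triangles the libraries without 4TU. DCP1 and DHH1 lie lowest in labelled reads, and the bars of XRN1 and SCD6 shrink most under the block.

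In the libraries without 4TU none of the 10 genes was called by edgeR, against 3.30% of all genes, and only DCP1 had an unadjusted p under 0.05. DCP1 had 7.005, 1.43 and 2.76 CPM in wild type and 0.807, 0.874 and 0.957 CPM in the deletion. All deletion libraries lay below all wild-type ones, as for 18.8% of genes, but the deletion values rest on 10 to 17 reads each. The log2 change was −2.00 (SE 0.65, adjusted p = 0.222 in edgeR). DESeq2 called it at −2.12 (adjusted p = 0.0470), with 0.599% of all genes called lower, and edgeR with the block gave −1.72 (adjusted p = 0.103). DHH1 changed there by −0.22 (SE 0.33), and its groups overlapped.

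Reads of 3 decapping genes were higher right after labelling than in the DMSO library of the same culture, out of 10.7% of all genes called higher and 18.9% called in either direction, and none of the 10 was among the 8.14% called lower. DCP1 moved most. It went from 7.005 to 9.23, 1.43 to 15.8 and 2.76 to 13.4 CPM in wild type, and from 0.807 to 7.55, 0.874 to 3.35 and 0.957 to 6.57 CPM in the deletion. All 6 cultures were higher after labelling, as for 8.26% of genes, with the smallest step in wild type 1, the culture with the highest starting value. The log2 change was 2.10 (SE 0.36, adjusted p = 7.46e-05 in edgeR with cultures as blocks, n = 6), and DCP1 was called in all 12 alternatives run, between 1.83 and 2.74.

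The calls of EDC2 and EDC1 after labelling were less firm. EDC2 went from 58.3 to 55.0, 55.8 to 74.7 and 50.3 to 70.6 CPM in wild type and from 55.2 to 68.7, 46.2 to 94.0 and 39.9 to 62.1 CPM in the deletion. It was higher in 5 of 6 cultures, all but wild type 1, with a log2 change of 0.45 (SE 0.13, adjusted p = 0.0126 in edgeR). EDC1 was higher in 4 of 6 cultures, all but both replicates 1, by 0.42 (SE 0.15, adjusted p = 0.0489 in edgeR). Without wild type 3, deletion 2 or deletion 3 in turn neither call was kept: EDC2 then had log2 changes of 0.44, 0.36 and 0.41 with adjusted p of 0.0568, 0.0781 and 0.0851 in edgeR. EDC1 was lost there too (0.35, 0.30 and 0.37, adjusted p of 0.183, 0.235 and 0.197), and also without wild type 2 (0.41, adjusted p = 0.132) and with RLE factors (0.42, adjusted p = 0.0525).

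EDC3 was lower after labelling in all 6 cultures, as were 7.33% of all genes, but by a log2 change of −0.30 (SE 0.13) that did not pass (adjusted p = 0.103 in edgeR). DHH1 at 0.52 (adjusted p = 0.0804) and PAT1 at 0.39 (adjusted p = 0.132) were higher in 5 and 4 of 6 cultures. Without deletion 1, in which both moved down, edgeR called DHH1 at 0.71 (adjusted p = 0.00620), PAT1 at 0.63 (adjusted p = 0.00220) and XRN1 at 0.34 (adjusted p = 0.0472), so that 6 genes were called higher. Without that culture 17.6% of all genes were called higher. DCP2, SCD6 and LSM1 changed by −0.03, 0.00 and −0.04, with SE of 0.07, 0.13 and 0.07. The step itself did not differ between genotypes by test in any of the 10 genes (edgeR interaction, no unadjusted p under 0.05, none called by DESeq2, and 0% of all genes called).

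The chase was read against the library at chase time 0, which the labelling comparison also uses, so the 2 comparisons share it. In the chase none of the 10 was called near 1 minute (0.162% of genes called) or 4 minutes (7.74%). Near 8 minutes edgeR called DCP1, EDC1 and EDC2 lower, among 11.8% of all genes called lower and 25.8% called in either direction, and each in 6 of 6 cultures, as for 13.6% of genes. DCP1 fell by 1.15 (SE 0.34, adjusted p = 0.00986), EDC1 by 0.62 (SE 0.15, adjusted p = 0.00202) and EDC2 by 0.61 (SE 0.13, adjusted p = 4.02e-04 in edgeR) on the log2 scale. The call for DCP1 was lost without wild type 3 (−1.06, adjusted p = 0.0669), and that for EDC1 with a genotype term in place of the culture blocks (−0.61, adjusted p = 0.0513 in edgeR).

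Near 18 minutes DCP1 at −1.86 (SE 0.35) and EDC2 at −0.69 (SE 0.13) were called lower, with 13.9% of all genes (28.9% in either direction). Near 58 minutes DCP1 at −1.80 (SE 0.36), EDC2 at −0.96 (SE 0.13) and EDC1 at −0.60 (SE 0.15) were, with 10.9% (24.5% in either direction). The last call for EDC1 was lost with a genotype term in place of the culture blocks (−0.58, adjusted p = 0.0938 in edgeR). EDC2 then stood at 35.5, 42.8 and 46.9 CPM in wild type and 28.8, 30.3 and 32.9 CPM in the deletion. Every one of the 6 values was below that culture's own DMSO library. In a contrast added after the values were seen, the last library against the DMSO library, EDC2 was the only one of the 10 called, at −0.51 (SE 0.13, adjusted p = 0.00306 in edgeR), where 14.1% of all genes were called lower and 33.7% in either direction. DCP1 stood 0.30 above its DMSO level in that contrast (SE 0.38, adjusted p = 0.582 in edgeR), and below it in wild type 1.

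None of the other 7 genes was called over the chase in the main edgeR fit. DHH1 was at −0.26 (SE 0.21) near 18 minutes and −0.40 (SE 0.21, adjusted p = 0.169 in edgeR) near 58 minutes. It was lower in 5 of 6 cultures each time. EDC3 was at 0.31 (SE 0.13, adjusted p = 0.0712 in edgeR) near 18 minutes, higher in 5 of 6 cultures. Without wild type 1, its exception, it was called at 0.43 (adjusted p = 0.00895). XRN1 near 8 minutes was lower in 6 of 6 cultures, by 0.31 (SE 0.14, adjusted p = 0.1002 in edgeR), with −1.12 in wild type 1 and −0.01 to −0.31 in the other 5. It was called by DESeq2 (−0.33, adjusted p = 0.0436) and without deletion 1 (−0.35, adjusted p = 0.0449 in edgeR). No change over the chase differed by test between genotypes in the 10 genes, at any point, against 0%, 0.018%, 0.0541%, 0.0721% and 0.0541% of all genes at the 5 points in turn. Of these 50 interactions 2 had an unadjusted p under 0.05: DCP2 near 1 minute (−0.34, SE 0.14) and EDC2 near 58 minutes (−0.59, SE 0.25), with adjusted p of 0.9996 and 0.516 in edgeR.

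DCP1 also had the highest conversion rate of the 10 genes. Right after labelling 50%, 56.2% and 63.7% of its reads in wild type held a T-to-C change, and 32.5%, 60.6% and 64.1% in the deletion. The first of the deletion cultures was the low one, and the genotypes overlapped. In the 6 libraries without 4TU, 2 of 196 DCP1 reads did. The background-subtracted conversion rate, converted over covered T bases, was 4.21% ± 1.12 (SD, n = 6 cultures), above 99.9% of the genes with enough reads, whose median was 2.61%. The other 9 genes lay between 2.09% (EDC1) and 2.85% (DHH1).

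The DCP1 reads that appeared after labelling covered more T bases than those before it. Without 4TU, a DCP1 read covered 12.7, 13.2 and 17.4 T bases on average in wild type and 12.4, 13.9 and 17.4 in the deletion. At chase time 0 it covered 24.0, 22.3 and 23.6 in wild type and 16.7, 23.3 and 22.8 in the deletion. The value was higher after labelling in 6 of 6 cultures. Pooled over cultures it went from 14.3 to 22.4 and then through 21.1, 20.5, 19.2 and 19.1 to 16.3 near 58 minutes. The first pooled ratio, 1.57, was the highest of 5477 genes, of which the middle 90% lay between 0.967 and 1.05. The other 9 decapping and decay genes lay between 0.978 and 1.04 when pooled, but some moved more in single cultures. EDC3 went from 12.5 to 16.6 in wild type 1 and from 12.3 to 10.8 in deletion 1. EDC1 went from 6.71 to 8.80 in deletion 1 and from 8.96 to 8.11 in deletion 2. The deposited tables give T bases covered per window, not read positions or lengths, so which stretch of DCP1 those reads cover was not tested. This measure was chosen after its values were seen.

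**Figure D3:**
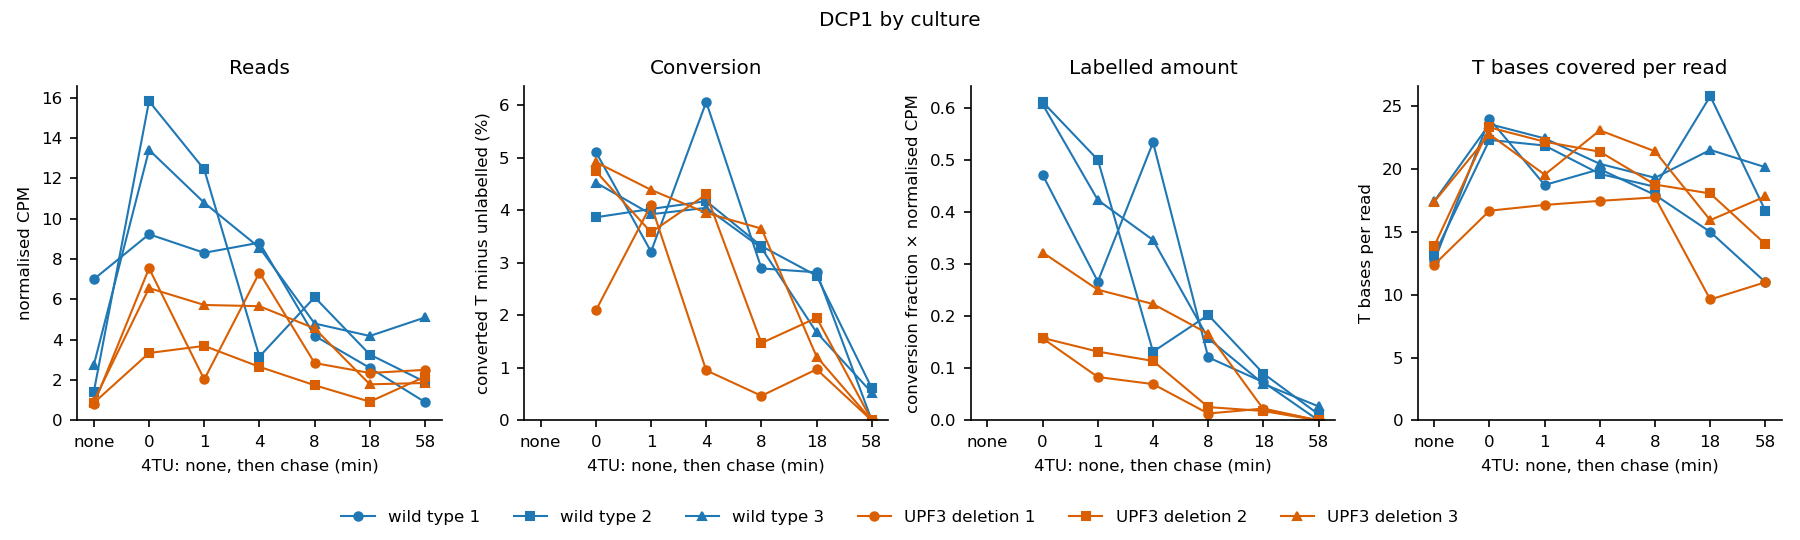
DCP1 in the 6 cultures over the libraries without 4TU and at rising chase time (minutes assumed): normalised CPM, background-subtracted converted T bases in percent, labelled amount (conversion fraction times normalised CPM) and T bases covered per read. Reads and T bases per read rise from the library without 4TU to chase time 0 in all 6 cultures, and conversion is at most 0.614% near 58 minutes.

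EDC1 stood out before any label was given. In its libraries without 4TU 80 of 1528 reads held a T-to-C change. By culture the share was 0.601%, 5.32% and 5.52% in wild type and 8.84%, 7.63% and 3.74% in the deletion. Wild type 1, at 2 of 333 reads (95% Wilson interval 0.165% to 2.16%), lay below the intervals of 4 of the others and overlapped that of deletion 3 (1.82% to 7.52%). Deletion 1 was highest (6.23% to 12.4%). These intervals cover counting error only. The conversion rate without 4TU was 0.331% ± 0.252 for wild type and 0.852% ± 0.443 for the deletion (SD, n = 3), against a median gene's 0.0265% over the 6 cultures, and only 2 genes had a higher mean rate. Near 58 minutes the share of EDC1 reads with a change was 6.80% ± 0.986 for wild type and 6.49% ± 3.70 for the deletion (SD, n = 3). Without 4TU it was 3.82% ± 2.79 for wild type and 6.74% ± 2.66 for the deletion. The other 9 genes had 0.0190% to 0.0712% of T bases converted without 4TU, pooled over cultures, where EDC1 had 0.542%.

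Half-lives, from a line through the log2 conversion rate over the chase, did not differ by test between genotypes in any of the 10 genes. No gene among 5333 passed in limma, 302 had an unadjusted p under 0.05, and DCP1 was the one such among the 10. DCP1 had half-lives of 25.7, 22.8 and 18.4 minutes in the wild-type cultures against 10.7, 9.72 and 10.4 minutes in the deletion cultures. The groups did not overlap, as for 12% of genes, and the log2 change was −1.11 (SE 0.18, adjusted p = 0.684 in limma). The wild-type mean was longer than that of 98.8% of genes, while the median gene of a culture averaged 11.4 minutes for wild type and 11.7 for the deletion. The values of DCP1 rest on few reads: deletion 1 had 2 labelled reads of 36 near 8 minutes and 3 of 32 near 18 minutes. The line uses only points with label above background. For DCP1 near 58 minutes this left out wild type 1 and all deletion cultures.

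The order of DCP1 among genes changed with the measure of decay. The labelled amount, the conversion rate times CPM, also counts the loss of reads. By it DCP1 had half-lives of 6.82, 9.50 and 12.8 minutes for wild type against 5.65, 4.49 and 5.31 minutes for the deletion, and the wild-type mean was longer than that of 20.1% of genes. The groups again did not overlap, as for 13% of all genes by this measure. By the share of reads with a T-to-C change the DCP1 groups did overlap. Half-lives from that share ran from 16.4 to 34.1 minutes for wild type and from 7.48 to 19.8 minutes for the deletion. Reads of DCP1 themselves fell by 1.80 on the log2 scale from chase time 0 to near 58 minutes, a loss that the rate per covered T does not count.

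The other subunit, DCP2, had half-lives of 15.2, 7.82 and 14.1 minutes for wild type against 10.3, 9.04 and 10.1 for the deletion by the rate. XRN1 had 15.7, 11.96 and 10.9 against 13.4, 11.3 and 10.2 minutes. For both genes the genotypes overlapped. EDC2 had 9.47, 11.6 and 7.16 against 10.4, 11.95 and 11.01 minutes, a log2 change of 0.26 (SE 0.21). In a single-exponential fit EDC2 had 3.80, 6.52 and 6.72 minutes for wild type against 9.93, 8.04 and 7.46 for the deletion. These groups did not overlap, as for 21.9% of all genes in that fit. Those of DCP1, shorter in the deletion, and LSM1, longer in it, did not overlap there either. EDC2 was not called (lowest adjusted p over its 15 alternatives 0.352 in limma). In the single-exponential fit the median gene of a culture averaged 8.51 ± 0.520 minutes for wild type and 10.2 ± 0.817 for the deletion (SD, n = 3). By the rate EDC1 scattered most, at 32.8, 19.7 and 5.13 minutes for wild type and 11.99, 11.9 and 20.1 for the deletion. Its background rate without 4TU is subtracted in that value, and label left near 18 minutes could not be tested for it because 2 deletion cultures fell below background.

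EDC3 had means of 9.18 ± 1.92 minutes for wild type and 10.1 ± 1.65 for the deletion, PAT1 11.1 ± 3.30 and 9.81 ± 0.568, and SCD6 11.3 ± 0.633 and 9.80 ± 1.63 (SD, n = 3). LSM1 had 9.82 ± 1.48 and 10.5 ± 0.776, and DHH1 15.9 ± 8.62 and 12.6 ± 4.89, with 25.6 minutes in wild type 1 the highest. Leaving EDC1 and DCP1 aside, the means of the 8 genes ran from 9.18 to 15.9 minutes. The first label after the pulse and the label left near 18 minutes differed by test in none of the genes tested, 10 and 9 of the 10, nor in any gene of the whole set (limma). EDC2 alone of the 10 had an unadjusted p under 0.05 for first label, at a log2 change of −0.33 (SE 0.14, adjusted p = 0.796 in limma), and none had one for label left.

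**Figure D4:**
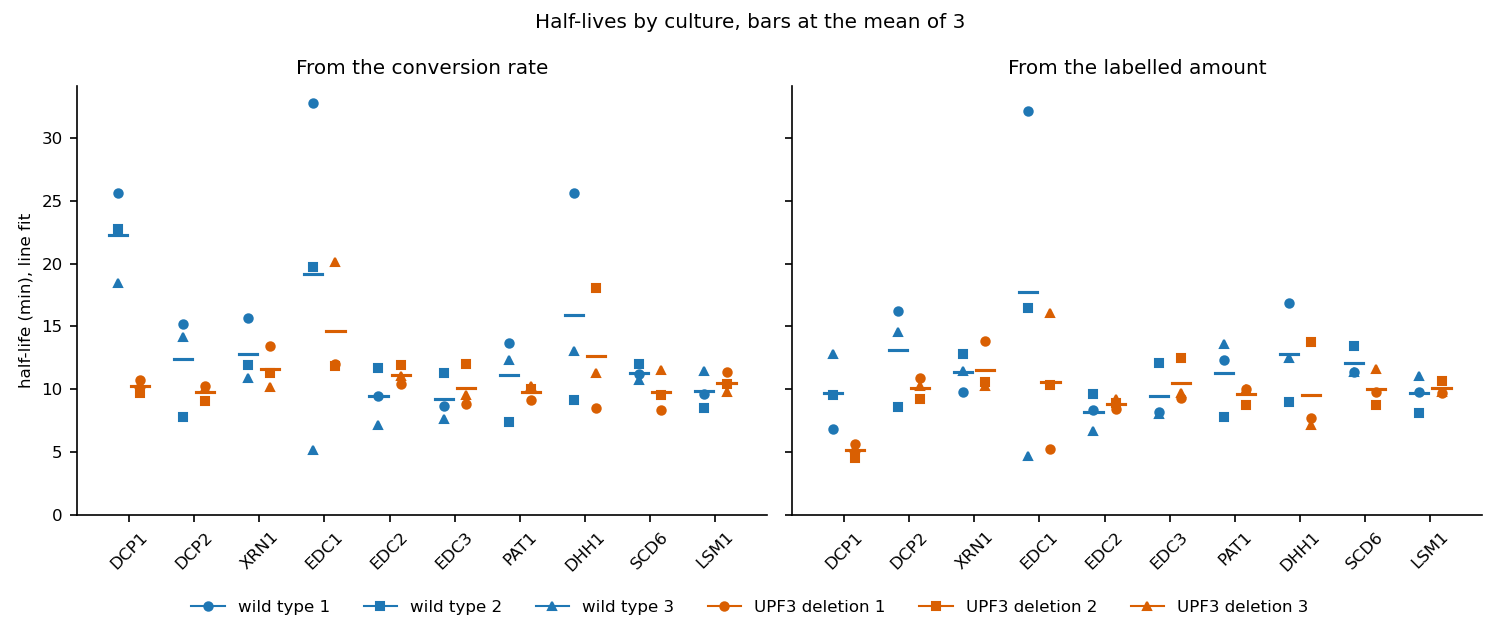
Half-lives in minutes (assumed unit; vertical axis from 0) per culture for the 10 genes, from the conversion rate on the left and from the labelled amount on the right, with bars at the mean of 3 cultures. DCP1 in wild type lies between 18.4 and 25.7 minutes on the left and between 6.82 and 12.8 on the right, above the deletion cultures in both, while EDC1 and DHH1 spread most.

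A list of 16 other genes of the pathway, among them the Lsm2 to Lsm7 ring subunits, the nuclear 5′ exonuclease RAT1, its partner RAI1 and the scavenger decapping genes DCS1 and DCS2, was tested alongside. None of the 16 was called between genotypes in labelled or unlabelled reads by edgeR without pairing. With the replicate block DXO1 alone was called, in labelled reads (0.83, adjusted p = 4.28e-04 in edgeR). DXO1, a decapping nuclease that removes faulty caps, had the lowest p in labelled reads (log2 0.83, SE 0.19, adjusted p = 0.0664 in edgeR), followed by STM1 (−0.22). LSM5 (−0.55) and DXO1 (0.57) had it without 4TU. Half-lives gave no call either, with DXO1 (0.53, adjusted p = 0.857) and PSP2 (0.31, adjusted p = 0.872) lowest in p by limma. First label was led by LSM7 and LSM3 and label left by LSM7 and DXO1, uncalled.

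After labelling 4 of the 16 were called in either direction, against 18.9% of all genes, 2 of them higher: RAT1 (0.50, adjusted p = 0.00176) and EAP1, an eIF4E-binding protein (0.78, adjusted p = 0.0123 in edgeR). DCS2, a paralog of the scavenger enzyme gene DCS1, was lower in 6 of 6 cultures (−0.67, adjusted p = 0.00518) and LSM6 in 5 of 6 (−0.42, adjusted p = 0.0213). During the chase 3, 4 and 4 of the 16 were called near 8, 18 and 58 minutes, against 25.8%, 28.9% and 24.5% of all genes. DCS1 was called lower near 8, 18 and 58 minutes (−0.44, −0.49 and −0.44), in all 6 cultures each time. DCS2 was called lower near 8 and 58 minutes (−0.65 and −0.60). RAI1 was called higher near 8 and 18 minutes (0.49 and 0.31), RAT1 and PBY1 near 18 minutes (0.38 and 0.32), and STM1 and LSM6 near 58 minutes (0.63 and 0.44). The median log2 change of the list after labelling was 0.01, against 0.31 for the 10 genes and −0.01 for all genes.

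Over the 42 libraries, centred within each culture, the reads of the genes most alike were found by Pearson correlation of log2(CPM + 1), given as a description. For EDC2 they were ROQ1 (r = 0.924), GSY1 (0.916) and MTH1 (0.909), which changed after labelling by 1.00, 0.76 and 1.33 and near 58 minutes by −2.85, −2.23 and −2.18 on the log2 scale. EDC1 was most like ISF1 (0.8003), IGD1 and STD1, and DCP1 most like YOR385W (0.785), SWP1 and MNC1. XRN1 went with COP1 (0.848), FAS2 and ACC1, PAT1 with DPS1 (0.873), MCA1 and ATP2, and DHH1 with SET5 (0.877), TRP3 and PHO8. LSM1 was most like UBC7 (0.835), TVP23 and MRPL25, EDC3 like FRE2 (0.781), NEO1 and YDR124W, SCD6 like SCY1 (0.755), KAR9 and GVP36, and DCP2 like ZRT2 (0.675), OCH1 and NDC80. Among the 10 genes the closest pairs were XRN1 with PAT1 (0.639), DCP1 with EDC2 (0.625), PAT1 with DHH1 (0.591) and EDC1 with EDC2 (0.589). The libraries share cultures and depth, which such values include.

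The annotation places 17 genes within 500 bases of the 10, and 15 of them were tested. Use of strand in counting was not stated, so the part of reads from these neighbours in any result was not tested. After labelling edgeR called 4 of the 15 higher and 2 lower, against 10.7% and 8.14% of all genes. SPT20 (YOL148C) ends 126 bases to the right of DCP1, on the other strand by its name. It was higher after labelling by 0.67 (adjusted p = 0.00442 in edgeR) and at 0.08 near 58 minutes (adjusted p = 0.764). GRE2, 215 bases to the left of DCP1, was lower after labelling, at −0.37 (adjusted p = 0.00690). Of the genes beside EDC1, COG1, 293 bases away, was higher by 1.75 after labelling (adjusted p = 1.80e-05) and lower near 58 minutes, at −0.89 (adjusted p = 0.0124 in edgeR). NIF3, on the other side of EDC1, was not called, at −0.18 (adjusted p = 0.196) and 0.18 (adjusted p = 0.184) in the same 2 comparisons. Beside EDC2, YER034W was higher after labelling (0.56, adjusted p = 0.0117) and lower near 58 minutes (−0.54, adjusted p = 0.0109 in edgeR), while ARB1 was at 0.03 after labelling and higher near 58 minutes, at 0.46 (adjusted p = 0.0304). GCD14 beside LSM1 was higher after labelling (0.36, adjusted p = 0.0135) and FUB1 beside PAT1 lower (−0.36, adjusted p = 0.0147 in edgeR). NCS2, BUD13, NPP2, PTC6, ANT1, NAT3 and MTC1, beside DCP2, XRN1, EDC3, PAT1, SCD6 and LSM1, lay between −0.22 and 0.30 after labelling, uncalled. Near 8 minutes edgeR called NCS2 (0.92), GRE2 (0.82), ARB1 (0.71) and GCD14 (0.48) higher and COG1 (−0.81) and PTC6 (−0.46) lower. At that point 25.8% of all genes were called in either direction. No neighbour overlaps a member in the annotation. Multi-mapping reads made up 5.38% of reads for EDC3, 1.45% for DHH1 and at most 0.328% for the other 8.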

How the data were processed

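The table of each culture stacks 7 libraries. Per the file headers, the authors' tables are SlamDunk output collapsed by gene. Build R64 is named in the submitters' processing notes. Not given in the sources used here were tool versions, settings, strand use and the unit of chase time. Deposited counts cover all reads, those with T-to-C, multi-mapping reads, and T bases covered and converted. The deposited conversion rate is a fraction, converted over covered T bases. The deposited CPM column, treated as a score because the table stacks libraries, was not used. Other deposited values (window length, T content, chase time) were used as given. Of 5560 identifiers 5558 matched the reference table.

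Reads were tested with edgeR 4.0.16 (filterByExpr, TMM, glmQLFit, glmQLFTest). Genotypes were compared on the 6 labelled libraries summed per culture and on the DMSO libraries. Labelling and chase were tested in 1 fit with cultures as blocks, and genotype interactions were added to it. Half-lives, first label and label left near 18 minutes came from background-subtracted rates and were tested with limma 3.58.1. Half-lives needed a mean of 20 reads per labelled library, signal at no fewer than 3 chase points and, in all cultures, a positive slope; lines were weighted by reads. Tests are two-sided and adjusted by Benjamini-Hochberg over all genes (threshold 0.05). Per-culture changes, used for counts of cultures, are log2 ratios of CPM + 0.01. Standard errors are those implied by the F test. Alternatives were DESeq2 1.42.0, RLE factors, filters, other decay fits, priors and cultures or libraries left out. Scripts were checked on simulated data. R 4.3.3, the data.table package (1.17.8), Python 3.11.15 and matplotlib 3.10.9 were used.

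Groups follow the labels' genotype. Same-numbered cultures deviated together in summed reads (r = 0.940, 0.913 and 0.868). So did wild type 2 with deletion 3 (0.793) and wild type 3 with deletion 2 (0.826). These values set replicate 1 apart more clearly than they tell replicates 2 and 3 apart. The main genotype test of reads was run without pairing, and the fit with the replicate block takes the numbers as pairs. The numbers did not pair half-lives (r = 0.057, 0.030 and 0.024). All 10 genes are named whatever their values, with UPF3, other pathway genes that were called or the 2 lowest in p, the 3 genes most alike and tested neighbours within 500 bases. The members and lists were chosen with earlier results of these data known. No sequences are printed. P-values of the genotype tests measure the spread between cultures that the labels call biological triplicates. Those of labelling, chase and their interactions rest on the scatter of libraries within cultures, pooled over all conditions.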

Additional observations from a re-analysis of the deposited data

Results flagged for a closer look

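XRN1 reads near 18 minutes of chase moved in opposite directions in the genotypes. Against chase time 0, the wild-type cultures changed by −0.49, −0.18 and −0.03 on the log2 scale and the deletion cultures by 0.52, 0.02 and 0.12. The means were −0.23 in wild type and 0.22 in the deletion. The difference between genotypes was 0.449 (SE 0.271) and did not pass the interaction test (adjusted p = 0.807 in edgeR). Replicate 1, which has the lowest XRN1 reads in each genotype, gave the largest change of both sets.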

How the results depend on the processing

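Of the 10 genes, labelled reads gave 0 called lower in the deletion by edgeR without pairing, 2 by DESeq2, 3 with the replicate block and 2 without replicate 1 of both genotypes; DMSO reads gave 0, and 1 by DESeq2. After labelling 3 were called higher, 1 when only the compared conditions were fitted, 1 with a genotype term in place of the culture blocks, and 1 to 6 with a culture left out. Near 18 minutes 0 were called higher, and 1 (EDC3) without wild type 1 and without the deletion library near 4 minutes. In labelled reads the replicate block gained the genotype calls of DCP1, DHH1 and PAT1. Labelling and chase were blocked by culture instead. Without the culture blocks the labelling calls of EDC1 and EDC2 were lost, as were the chase calls of EDC1 near 8 and 58 minutes. Neither kind of block changed any other call for the 10 genes. Over 1956 values of single genes, 1775 kept their side of the threshold and direction, 151 uncalled ones changed sign, 15 lost and 15 gained a call, and no called value reversed. Over all genes the genotype calls in labelled reads were 310 higher and 10 lower, 489 and 75 by DESeq2, 1108 and 419 with the block, and 1271 and 256 without replicate 1. Those in DMSO reads were 178 and 4, 335 and 33, 727 and 122, and 691 and 91. Labelling calls were 595 and 451, 221 and 105 in the compared conditions, and 97 and 92 without the culture blocks. With 1 culture left out, calls in labelled reads ran from 48 to 460 higher and 2 to 14 lower, those in DMSO reads from 20 to 252 and 1 to 7, and labelling calls from 317 to 973 and 227 to 1062; the highest came without wild type 1 for DMSO reads and without deletion 1 otherwise, the fewest genes higher without wild type 3. Half-life calls were 0, with 20 higher in the single-exponential fit and 3 in the line without the last point, none of them among the 10. The causes were not tested. Depth limits DCP1 most, with a median of 60.5 reads per library.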
